A study of Mus musculus with 6 samples.

Results

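The genes described here are those that present peptides and lipids to T cells on MHC molecules, which in the mouse are called H2. They were chosen by name, as the protein-coding rows whose symbol starts with H2- together with 14 named genes, for the invariant chain, the transactivators, the class I light chain, the peptide-loading machinery and the class I-like molecules Cd1d1 and Mr1. This gave 41 of the 23194 genes in the table, 11 in the class II group and 30 in the class I group. RNA came from the whole left lung of mice that were adult, wild type and of the strain C57BL/6, in 3 injured and 3 naive samples. Injured lungs had 4 h of left pulmonary artery ligation, a warm ischemia during which the animals breathed, followed by 24 h of reperfusion. Naive lungs were controls for which the labels describe no operation, so operation and ischemia cannot be told apart. The design counts the injured samples as 3 left lungs and the naive ones only as 3 lung samples. Each sample is called a lung below. Where no separate animals are named, p-values measure the spread between samples, part of which may be technical.

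Class I molecules sit on nearly all nucleated cells and show peptides made in the cytosol to CD8 T cells. They pair a heavy chain with beta-2-microglobulin, and their peptides reach them through the TAP transporter and a loading complex. Class II molecules show peptides from endosomes to CD4 T cells and are made mainly by dendritic cells, B cells and macrophages, and in the mouse lung also by alveolar type 2 cells. Their alpha and beta chains assemble with the invariant chain, which is cut down in endosomes and exchanged for a peptide with the help of H2-DM. The coactivator Ciita switches class II genes on, and its relative Nlrc5 acts on class I genes. C57BL/6 mice carry a defective alpha chain gene for the I-E molecule, so H2-Eb1 is transcribed without a surface I-E product.

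Promoters are described first, for the letters of the boxes at which Ciita works. Ciita does not bind DNA itself but joins factors on the X box and Y box, and the Y box binds NF-Y. RefSeq windows (build GRCm38.p6, 250 bases before to 50 bases after a start) were found for 31 of the 41 members. Cd1d1, Cd74, Ciita, H2-Ab1, H2-Bl, H2-Q1, H2-T24, Nlrc5, Tap2 and Tapbpl had none. On either strand the letters GATTGG, the core of the Y box, were present in 8 of 8 class II genes. They were present in 13 of 23 class I genes, and in 18.2% of the 27025 genes with a window. The H2-DMa match lay in a window starting at base 34125268 of chromosome 17, upstream of the gene's deposited start at 34135182. The letters ACNGATG of the X box were present in 6 of 8 class II and 8 of 23 class I genes, against 11.2% of all genes. Both in this order on the plus strand of the gene, with their first bases 20 to 40 bases apart, were found in only 9 genes in all. Of these, 4 were H2-Eb1, H2-Eb2, H2-DMb1 and H2-DMb2, with spacings of 28, 28, 29 and 29 bases. This spacing was chosen after these sequences had been seen, and a match is a description of letters, not a binding site. The letters GAANNGAAA, the core of an interferon-stimulated response element, were present in 0 of 8 class II and 8 of 23 class I genes, against 8.68% of all genes. The motifs were searched without regard to overlap with each other.

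The 200 bases before the start are shown for class II chains (H2-Aa, H2-Eb1) and exchange genes (H2-DMb1, H2-Ob), of which H2-DMb1 was not called. Beside them are class I genes that were not called and H2-Q10, which was higher. The H2-D1 stretch lies inside the deposited gene, which starts at 35262730. The H2-DMb1 stretch lies partly inside its gene, which starts at 34153072. Capitals mark matches to these 3 motifs on either strand.
H2-Aa (chr17:34287824-34288023, minus strand): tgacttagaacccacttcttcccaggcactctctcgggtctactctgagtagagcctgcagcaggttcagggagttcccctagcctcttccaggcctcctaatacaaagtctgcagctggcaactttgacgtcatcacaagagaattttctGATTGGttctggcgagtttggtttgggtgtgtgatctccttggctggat
H2-Eb1 (chr17:34305667-34305866, plus strand): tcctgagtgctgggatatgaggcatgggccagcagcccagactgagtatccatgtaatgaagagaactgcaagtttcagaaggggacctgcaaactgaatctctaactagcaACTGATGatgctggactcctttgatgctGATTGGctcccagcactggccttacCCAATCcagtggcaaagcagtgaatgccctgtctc
H2-DMb1 (chr17:34152991-34153190, plus strand): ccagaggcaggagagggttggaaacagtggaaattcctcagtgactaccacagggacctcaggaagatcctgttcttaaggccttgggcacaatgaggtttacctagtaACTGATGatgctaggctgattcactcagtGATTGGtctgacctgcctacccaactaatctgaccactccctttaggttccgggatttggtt
H2-Ob (chr17:34238705-34238904, plus strand): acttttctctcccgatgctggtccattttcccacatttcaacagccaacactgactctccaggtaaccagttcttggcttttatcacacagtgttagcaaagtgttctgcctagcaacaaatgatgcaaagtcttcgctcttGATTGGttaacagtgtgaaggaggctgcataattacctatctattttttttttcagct
H2-K1 (chr17:34000334-34000533, minus strand): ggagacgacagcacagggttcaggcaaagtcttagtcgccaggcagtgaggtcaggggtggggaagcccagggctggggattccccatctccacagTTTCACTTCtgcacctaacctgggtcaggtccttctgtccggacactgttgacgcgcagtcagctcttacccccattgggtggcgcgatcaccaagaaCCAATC
H2-D1 (chr17:35262894-35263093, plus strand): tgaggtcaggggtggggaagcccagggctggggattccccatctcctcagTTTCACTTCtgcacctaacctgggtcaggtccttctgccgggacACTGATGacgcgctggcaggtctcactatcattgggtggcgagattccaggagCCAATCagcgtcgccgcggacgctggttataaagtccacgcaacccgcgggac
B2m (chr2:122147487-122147686, plus strand): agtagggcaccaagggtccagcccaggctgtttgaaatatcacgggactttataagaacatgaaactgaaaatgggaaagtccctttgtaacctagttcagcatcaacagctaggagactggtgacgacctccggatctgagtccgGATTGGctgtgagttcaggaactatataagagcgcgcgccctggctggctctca
H2-Q10 (chr17:35469889-35470088, plus strand): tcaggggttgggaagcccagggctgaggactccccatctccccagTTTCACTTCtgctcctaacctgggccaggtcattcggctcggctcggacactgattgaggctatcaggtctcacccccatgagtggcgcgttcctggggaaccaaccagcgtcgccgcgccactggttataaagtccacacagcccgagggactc
The 4 class II stretches and B2m carry GATTGG on the gene's own strand, and H2-Eb1 also its reverse. H2-K1 and H2-D1 carry its reverse, with the reverse of the interferon element upstream, and H2-D1 also ACNGATG. H2-K1 has 2 annotated starts, and the later one is shown. H2-Q10 held the interferon element but neither GATTGG nor ACNGATG in its window.

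Injured lungs held less class II RNA and about as much class I RNA as naive lungs. Levels are given as CPM, counts scaled to the size of the library after TMM normalization, and a call means that edgeR's quasi-likelihood test over all 15486 genes tested gave an adjusted p under 0.05. The 11 class II genes were all tested, and 5 were called lower and 0 higher in injured lungs. Over all genes tested 3.11% were called, 0.956% lower and 2.16% higher. DESeq2 and limma-voom likewise called 0 class II genes higher, and 0 had an unadjusted p under 0.05 in that direction in edgeR. Of the 30 class I genes 26 passed the filter on low counts, with 0 called lower and 1 called higher. Of these 26, 3 were lower at an unadjusted p under 0.05 in edgeR, as were 7.66% of all genes tested, with 9.06% higher. DESeq2 and limma-voom each called 1 of the 26 lower, and limma-voom called 0.878% of all genes lower and 1.99% higher. The summed level of the class II group was 1600.5 ± 87.4 CPM in injured and 2394 ± 35.5 CPM in naive lungs, and that of the class I group 5916 ± 269.8 CPM in injured and 6034 ± 162 CPM in naive lungs (SD, n = 3 each). The median log2 fold change of injured over naive lungs was -0.57 over the class II group and -0.029 over the class I genes tested, beside -0.00096 over all genes tested. In 11 of 11 class II genes and 14 of 26 class I genes the fold change was below 0, as in 50.2% of all genes tested. All CPM values of the injured lungs lay below all those of the naive lungs in 10 of 11 class II and 5 of 26 class I genes, against 10.6% of all genes tested. In whole lung, fewer cells of a type and less RNA per cell cannot be told apart.

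**Figure D1:**
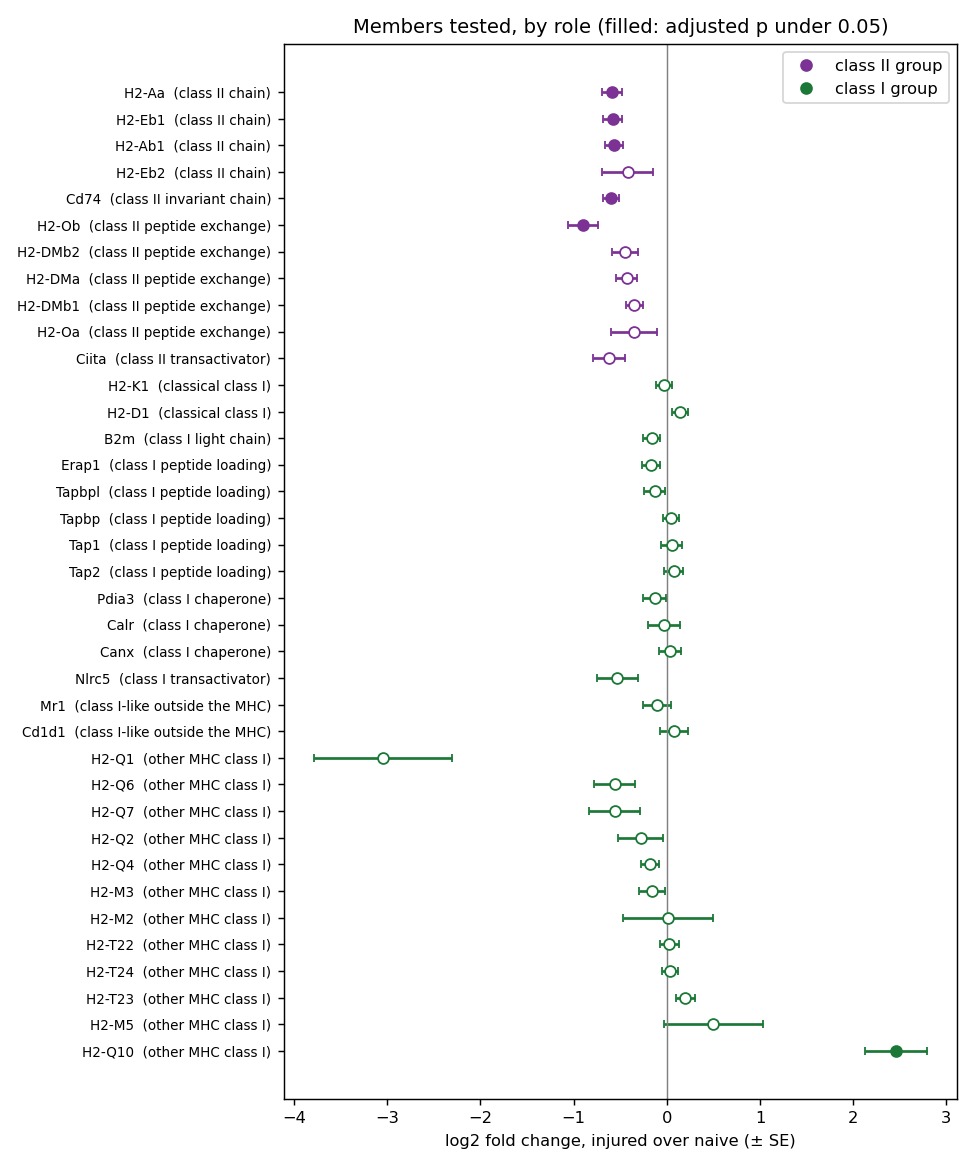
Log2 fold change of injured over naive lungs (± SE, edgeR, n = 3 lungs in each group) for the 37 members tested, ordered by role, with filled points for an adjusted p under 0.05. The 11 class II genes lie between -0.90 and -0.35, while most class I genes lie near 0, with H2-Q1 at -3.04 and H2-Q10 at 2.46.

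The class II chains fell together. H2-Aa (ENSMUSG00000036594, chromosome 17, 34282744 to 34287827), the alpha chain of I-A, had 221, 275 and 231 CPM in injured lungs, against 389, 369 and 336 CPM in naive lungs. H2-Ab1 (ENSMUSG00000073421, chromosome 17, 34263209 to 34269418), its beta chain, had 238, 275 and 244 CPM in injured lungs, against 392, 384 and 348 CPM in naive lungs. H2-Eb1 (ENSMUSG00000060586, chromosome 17, 34305877 to 34316199), the beta chain of I-E, had 164, 203 and 162 CPM in injured lungs, against 271, 262 and 258 CPM in naive lungs. In each of these 3 genes injured replicate 2 was the highest of its group and still stood below every naive lung. The log2 fold changes were -0.59 ± 0.11 (SE, edgeR adjusted p = 0.0198) for H2-Aa, -0.57 ± 0.095 (adjusted p = 0.0127) for H2-Ab1 and -0.58 ± 0.10 (adjusted p = 0.0184) for H2-Eb1. The fitted levels in injured lungs were 66.4%, 67.3% and 66.98% of those in naive lungs. The chains kept their proportions, with an FPKM ratio (counts per gene length and library size) of H2-Aa to H2-Ab1 of 1.03 ± 0.0404 in injured and 1.04 ± 0.0192 in naive lungs (SD, n = 3 each). The ratio of H2-Eb1 to H2-Ab1 was 0.715 ± 0.0391 in injured and 0.721 ± 0.0327 in naive lungs. H2-Eb2, a little-expressed beta chain gene, had 1.74, 1.64 and 2.11 CPM in injured lungs, against 2.89, 2.49 and 1.99 CPM in naive lungs. H2-Eb1 overlaps the antisense gene Gm20513. The groups of H2-Eb2 overlapped, and its log2 fold change of -0.42 ± 0.27 did not pass the test (adjusted p = 0.494).

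Cd74 (ENSMUSG00000024610, chromosome 18, 60803848 to 60812646), the invariant chain that occupies the class II groove until it is cleaved, fell by a similar proportion. It had 828, 828 and 801 CPM in injured lungs, against 1187, 1252 and 1272 CPM in naive lungs. The lungs of each group lay close together and far from the other group. The log2 fold change was -0.60 ± 0.089 (edgeR adjusted p = 0.00788), or 66.2% of the naive level. The ratio of Cd74 to H2-Ab1 by FPKM was 2.80 ± 0.200 in injured and 2.85 ± 0.270 in naive lungs (SD, n = 3 each). Cd74 stayed called when any 1 lung was left out, with adjusted p up to 0.0498.

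Of the genes of peptide exchange, H2-Ob fell and the other 4 did not pass the test. H2-Ob (ENSMUSG00000041538, chromosome 17, 34238903 to 34245907), the beta chain of H2-O, a brake on H2-DM found mostly in B cells, had 7.10, 8.68 and 7.47 CPM in injured lungs, against 16.7, 14.7 and 12.2 CPM in naive lungs. The groups did not overlap, and its log2 fold change of -0.90 ± 0.16 was the lowest value of the class II group (edgeR adjusted p = 0.0184). Its partner H2-Oa had 1.84, 1.68 and 2.11 CPM in injured lungs, against 2.59, 2.22 and 2.37 CPM in naive lungs, at 125 counts over the injured and 200 over the naive libraries. With so few counts its log2 fold change was -0.35 ± 0.25 (adjusted p = 0.543). H2-DMa, the alpha chain of H2-DM, had 30.1, 33.99 and 26.9 CPM in injured lungs, against 43.1, 39.5 and 39.9 CPM in naive lungs. H2-DMb1, a beta chain, had 35.6, 40.9 and 37.2 CPM in injured lungs, against 48.5, 49.3 and 47.3 CPM in naive lungs. H2-DMb2, the other beta chain, had 11.96, 12.6 and 11.5 CPM in injured lungs, against 17.8, 18.1 and 13.6 CPM in naive lungs. None of the 3 groups of values overlapped. None of the 3 genes passed the threshold in edgeR, with log2 fold changes of -0.43 ± 0.11 (adjusted p = 0.0714), -0.35 ± 0.09 (adjusted p = 0.0736) and -0.45 ± 0.14 (adjusted p = 0.138). In GENCODE M21 transcripts, 4.71% of the 150-base windows of H2-DMb1 were identical to a window of H2-DMb2, so some reads of the pair may not be assignable.

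Ciita (ENSMUSG00000022504, chromosome 16, 10488178 to 10527564) had 16.7, 21.4 and 18.8 CPM in injured lungs, against 34.6, 30.3 and 22.4 CPM in naive lungs. Naive replicate 3 lay close to the injured lungs, and the groups did not overlap. The log2 fold change of -0.62 ± 0.17 was as large as those of the chains but missed the threshold in edgeR (adjusted p = 0.0901), and its adjusted p ran from 0.0179 to 0.271 over 12 alternatives. The gene overlaps Dexi on the opposite strand, and the strand setting of the counting is not given in the sources used here. The ratio of Ciita to H2-Ab1 by FPKM was 0.0173 ± 0.000953 in injured and 0.0178 ± 0.00279 in naive lungs (SD, n = 3 each).

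**Figure D2:**
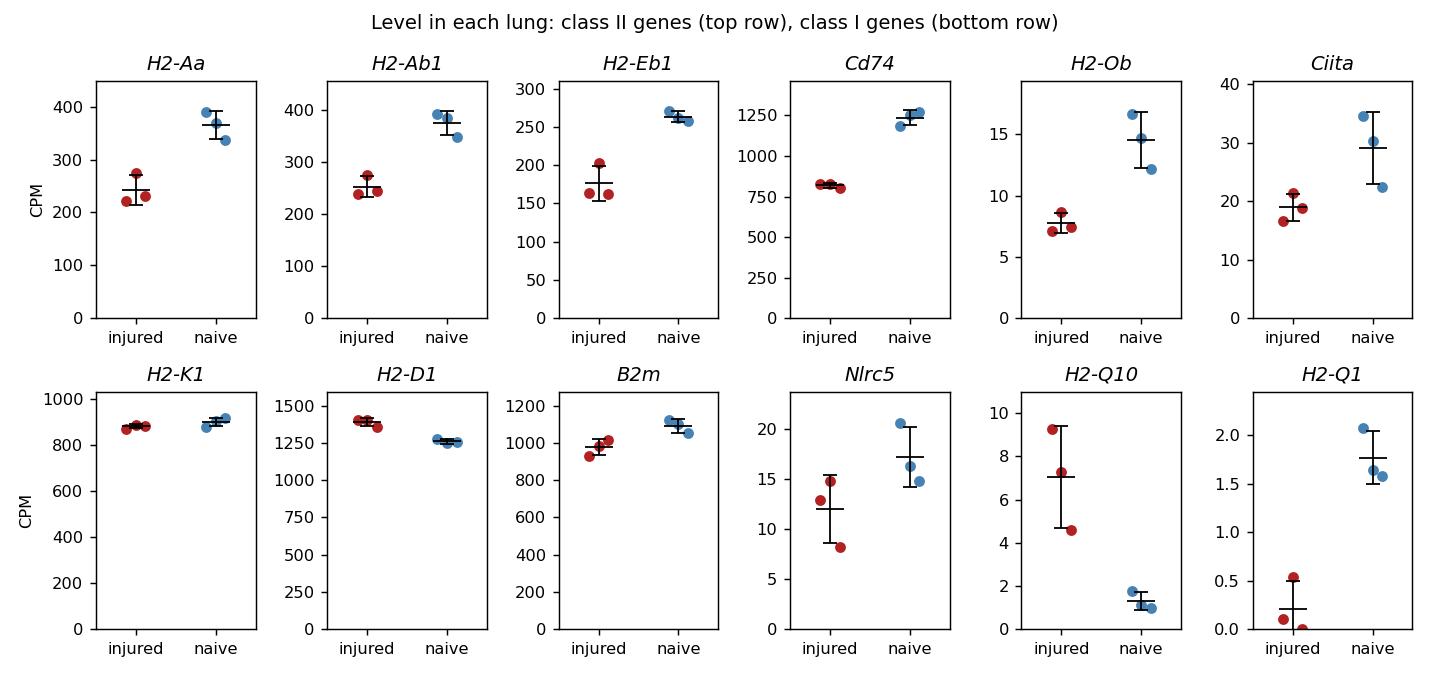
CPM in each lung (points), with the mean and SD of 3 lungs per group (bars), for 6 class II genes in the top row and 6 class I genes in the bottom row, each on its own axis from 0. The injured lungs lie below the naive lungs in all 6 class II genes. Of the class I genes, H2-K1 overlaps, H2-D1 and H2-Q10 are higher in injured lungs, and B2m, Nlrc5 and H2-Q1 are lower without overlap. Only H2-Q10 of these 6 was called.

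Leaving out 1 lung changed the number of class II calls more than the fold changes. Of the 11 genes, 1 was called lower without injured replicate 1, and 2 were when naive replicate 1 was left out. Without naive replicate 2 the count was 1. It was 5 without injured replicate 2 or 3, and 7 when naive replicate 3 was left out. The median log2 fold change of the class II group stayed between -0.60 and -0.48 over these 6 fits. Without injured replicate 1 the adjusted p was 0.0935 for H2-Aa, 0.0684 for H2-Ab1, 0.0919 for H2-Eb1 and 0.0830 for H2-Ob. In the same fit 48 genes in all were called lower, against 148 with all lungs. Without injured replicate 2 or 3 the genes called lower were 88 and 130. Without naive replicate 1, 2 or 3 they were 131, 50 and 146. DESeq2 called 8 of 11 class II genes lower, adding H2-DMa, H2-DMb1 and Ciita, where 2.69% of all its genes were called lower and 3.78% higher. The authors' deposited table likewise had 8 of 11 class II genes lower at an adjusted p under 0.05, where 2.54% of its 15721 genes with an adjusted p were lower and 3.61% higher.

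**Figure D3:**
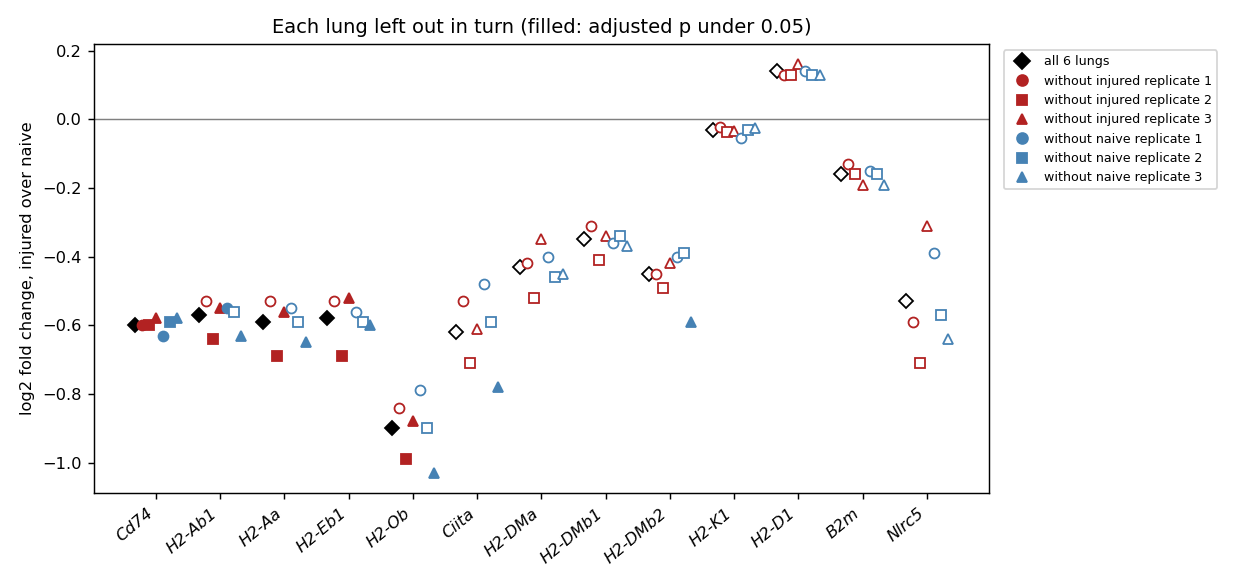
Log2 fold change of injured over naive lungs (edgeR) for 13 members with all 6 lungs and with each lung left out in turn, filled where the adjusted p was under 0.05. The 9 class II genes shown stay between -1.03 and -0.31 whichever lung is left out (H2-Oa and H2-Eb2, not shown, reach -0.28 and -0.29), while Cd74 alone among them is filled in every fit, and the class I genes shown are filled in none.

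Classical class I chains were not called in either direction. H2-K1 (ENSMUSG00000061232, chromosome 17, 33996017 to 34000333) had 870.2, 887 and 883 CPM in injured lungs, against 878, 904 and 915 CPM in naive lungs. H2-D1 (ENSMUSG00000073411, chromosome 17, 35262730 to 35267499) had 1404, 1406 and 1360.0 CPM in injured lungs, against 1278, 1248 and 1258 CPM in naive lungs. The H2-K1 groups overlapped, and the H2-D1 values were all higher in injured lungs by a small step. Neither passed the test in edgeR, with log2 fold changes of -0.031 ± 0.086 (adjusted p = 0.901) and 0.14 ± 0.088 (adjusted p = 0.480). B2m (ENSMUSG00000060802, chromosome 2, 122147686 to 122153083), the light chain shared by class I molecules, had 932, 982 and 1019 CPM in injured lungs, against 1125, 1102 and 1053 CPM in naive lungs. Its groups did not overlap, and its log2 fold change of -0.16 ± 0.091 did not pass the test (adjusted p = 0.423). A p above the threshold does not show that these levels were equal.

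The order of the most abundant presentation genes was different in the groups. By FPKM, which allows levels of genes to be compared, injured lungs averaged 1142 ± 50.1 for B2m, 664 ± 13.3 for H2-D1, 583 ± 12.05 for Cd74 and 472 ± 4.84 for H2-K1 (SD, n = 3). Naive lungs averaged 1264 ± 61.96 for B2m, 872 ± 21.9 for Cd74, 597 ± 13.8 for H2-D1 and 477 ± 5.30 for H2-K1 (SD, n = 3). Cd74 stood below H2-D1 in injured lungs and above it in naive lungs, in both by more than the spread between lungs. Next in injured lungs came Calr at 276 ± 52.4, H2-Aa at 215 ± 25.7, H2-Ab1 at 209 ± 16.6, Pdia3 at 205 ± 22.7 and H2-Eb1 at 149.8 ± 19.8 FPKM. In naive lungs they were H2-Aa at 321 ± 28.4, H2-Ab1 at 308 ± 23.5, Calr at 278 ± 50.03, Pdia3 at 222 ± 23.6 and H2-Eb1 at 221 ± 8.67 FPKM. The means of H2-Aa and H2-Ab1 lay closer together than the SD over lungs in both groups, although the ratio within a lung was above 1 in all 3 naive lungs. Pdia3 and H2-Eb1 were likewise within their spread of each other in naive lungs. So were Calr, H2-Aa and H2-Ab1 in naive lungs, and H2-Aa, H2-Ab1 and Pdia3 in injured lungs.

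A ratio within a lung does not depend on how libraries are scaled. The summed FPKM of H2-Aa, H2-Ab1 and H2-Eb1 over that of H2-K1 and H2-D1 was 0.468, 0.561 and 0.485 in injured lungs, against 0.833, 0.803 and 0.739 in naive lungs. The groups did not overlap, at 0.505 ± 0.0496 in injured and 0.791 ± 0.0481 in naive lungs (SD, n = 3 each). The difference was -0.65 on the log2 scale and lay between -0.73 and -0.60 with any 1 lung left out. No test was run on this ratio, because the genes in it were chosen with results of these lungs known.

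Genes that supply and load class I peptides were not called in either direction. Tap1 and Tap2, the subunits of the peptide transporter, had log2 fold changes of 0.052 ± 0.11 (edgeR adjusted p = 0.870) and 0.074 ± 0.10 (adjusted p = 0.783). Tapbp, or tapasin, which bridges TAP and class I, had 243, 236 and 227 CPM in injured lungs, against 210.5, 236 and 238 CPM in naive lungs. Of the others, Tapbpl, an exchange factor related to tapasin, and Erap1, which trims peptides in the endoplasmic reticulum, had log2 fold changes of -0.13 ± 0.11 and -0.17 ± 0.10. The chaperones Calr, Canx and Pdia3 ranged from -0.13 to 0.035, and their levels varied among lungs of a group more than between groups. Calr, for example, had 526, 544 and 733 CPM in injured lungs, against 493, 614 and 731 CPM in naive lungs. B2m, Pdia3, Tap1, Tap2, Tapbp and Tapbpl overlap other genes on the opposite strand, so some of their reads may belong to those. Tapbp also overlaps the protein-coding gene Zbtb22 on the same strand.

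Nlrc5 (ENSMUSG00000074151, chromosome 8, 94472763 to 94527272), the class I transactivator, had 12.95, 14.8 and 8.18 CPM in injured lungs, against 20.6, 16.3 and 14.8 CPM in naive lungs. Injured replicate 2 and naive replicate 3 lay next to each other. The log2 fold change of -0.53 ± 0.22 did not pass the test in edgeR (adjusted p = 0.267), nor in any of 12 alternatives (adjusted p from 0.110 to 0.486). Of the class I-like genes outside the MHC, Cd1d1, which shows lipids to NKT cells, had a log2 fold change of 0.081 ± 0.15, and Mr1, which shows microbial vitamin B metabolites to MAIT cells, one of -0.11 ± 0.15.

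The other class I genes of the MHC held the largest changes in both directions, at low levels. H2-Q10 (ENSMUSG00000067235, chromosome 17, 35470089 to 35474563), which encodes a secreted class I protein made mainly in liver, had 9.28, 7.27 and 4.60 CPM in injured lungs, against 1.75, 1.11 and 0.966 CPM in naive lungs. Injured lungs differed among themselves, and the lowest still stood above every naive lung. It rose with a log2 fold change of 2.46 ± 0.33 (edgeR adjusted p = 0.00584), from 460 counts over the injured and 106 over the naive libraries, and was called in all 12 alternatives. Of its 150-base transcript windows 3.43% also occur in another gene. Of 8 hepatocyte markers, listed after these values had been seen, 7 were measured and their summed level was 1.69, 3.59 and 4.05 CPM in injured lungs, against 2.25, 3.33 and 3.07 CPM in naive lungs. Albumin (Alb) had 0.261 ± 0.216 CPM in injured and 0.902 ± 0.237 CPM in naive lungs, and Ahsg, a liver plasma protein, 2.39 ± 0.954 CPM in injured and 0.865 ± 0.258 CPM in naive lungs (SD, n = 3 each). The part of liver transcripts in the H2-Q10 level was not tested. H2-Q1 (ENSMUSG00000079507, chromosome 17, 35320405 to 35325099) had 0.0992, 0.532 and 0 CPM in injured lungs, against 2.08, 1.64 and 1.58 CPM in naive lungs. This came from 14 counts over the injured and 147 over the naive libraries, without overlap. Its fitted log2 fold change of -3.04 ± 0.74 missed the threshold in edgeR (adjusted p = 0.0699) and passed it in DESeq2 (adjusted p = 0.00164), in limma-voom (adjusted p = 0.0395) and without injured replicate 2 (adjusted p = 0.0152). In the authors' deposited table its adjusted p was 0.00306.

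H2-Q6 and H2-Q7, which encode the Qa-2 antigen, had similar fold changes. H2-Q6 had 44.2, 77.9 and 76.2 CPM in injured lungs, against 112, 89.6 and 90.8 CPM in naive lungs. H2-Q7 had 35.5, 65.1 and 72.6 CPM in injured lungs, against 98.7, 73.3 and 82.8 CPM in naive lungs. Injured replicate 1 stood well below its group in both, and neither gene had overlapping groups. Their log2 fold changes of -0.56 ± 0.22 and -0.56 ± 0.27 did not pass the test in edgeR (adjusted p = 0.259 and 0.376). Of the 150-base windows of H2-Q6 5.99% also occur in H2-Q7, so some reads of the pair may not be assignable. H2-T23, which encodes Qa-1, a ligand of the NKG2A receptor, had 185, 211 and 207 CPM in injured lungs, against 197, 162 and 166 CPM in naive lungs, and a log2 fold change of 0.20 ± 0.10 (adjusted p = 0.366). H2-Q4, the other abundant gene of this set, had 102 ± 4.96 CPM in injured and 116 ± 13.8 CPM in naive lungs (SD, n = 3 each), with overlapping groups. The remaining genes tested were H2-M2, H2-M3, which shows formylated peptides, H2-M5, H2-Q2, H2-T22 and H2-T24, with log2 fold changes from -0.28 to 0.50 and no call. H2-Bl, H2-M9, H2-M10.2 and H2-T3 had at most 4 counts in either group and were not tested.

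Genes that act beside the class II molecules did not follow them as a group. Over all genes tested 0.956% were called lower and 2.16% higher in edgeR. Of 7 listed genes, 6 endosomal proteases and the reductase Ifi30, 4 rose and 0 fell, with a median log2 fold change of 0.45. They were Lgmn (0.62 ± 0.11, edgeR adjusted p = 0.0193), an asparaginyl endopeptidase that starts the cleavage of the invariant chain, Ctsh (0.61 ± 0.10, adjusted p = 0.0132), Ctsb (0.51 ± 0.11, adjusted p = 0.0314) and Ctsd (0.45 ± 0.092, adjusted p = 0.0288). These are general lysosomal enzymes of phagocytes, and Ctsh also processes surfactant protein in type 2 cells. Ctss, which makes the last cuts in the invariant chain, had 239 ± 18.3 CPM in injured and 191 ± 12.97 CPM in naive lungs (SD, n = 3 each) and did not pass the test (log2 fold change 0.33 ± 0.094, adjusted p = 0.106), although DESeq2 called it higher too. None of 7 genes of the DNA-bound complex that recruits Ciita passed the test in edgeR, DESeq2 or limma-voom, and 0 had an unadjusted p under 0.05 in edgeR. By CPM, which is not corrected for gene length, the highest of them were Creb1 (log2 fold change 0.021 ± 0.10) and Nfya (-0.057 ± 0.12). Of 8 co-stimulatory and checkpoint ligands 7 were tested, and 1 fell. This was Cd83, which protects class II molecules from breakdown, at 8.57 ± 0.427 CPM in injured and 15.2 ± 0.812 CPM in naive lungs (log2 fold change -0.82 ± 0.13, adjusted p = 0.00899).

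Interferon-gamma is the main inducer of both transactivators, and its transcript was near the floor of detection, with 9 counts over the injured and 14 over the naive libraries. None of the 9 tested genes of its receptor and signalling axis, out of 10 listed, passed the test in edgeR, DESeq2 or limma-voom, and 0 had an unadjusted p under 0.05 in edgeR. The kinase Jak1 had a log2 fold change of -0.11 ± 0.084 and the receptor chain Ifngr1 one of 0.041 ± 0.11. Of 12 interferon-induced genes 1 fell, the guanylate-binding protein gene Gbp3, at 19.8 ± 0.884 CPM in injured and 35.4 ± 4.98 CPM in naive lungs (SD, n = 3 each, log2 fold change -0.84 ± 0.12, edgeR adjusted p = 0.00690). At an unadjusted p under 0.05 in edgeR 3 of the 12 were lower and 1 higher, against 7.66% and 9.06% of all genes tested. The median of this list was 0.015. DESeq2 called 3 lower, adding Gbp5 and Gbp7, where 2.69% of all its genes were called lower. Of 6 genes of the immunoproteasome and its activator, which cut peptides for class I, 0 passed the test in edgeR, DESeq2 or limma-voom and 0 had an unadjusted p under 0.05 in edgeR, with a median of 0.12. Psme1, the highest by CPM, had a log2 fold change of -0.056 ± 0.089, and Psme3 one of 0.11 ± 0.10.

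Marker lists were measured for cells that carry class II molecules and for other cells of the lung. The shares of all genes tested at an unadjusted p under 0.05 in edgeR were 7.66% lower and 9.06% higher. At an adjusted p under 0.05 they were 0.956% lower and 2.16% higher in edgeR. In DESeq2 they were 2.69% lower and 3.78% higher. Of 12 dendritic cell markers 0 passed the test in edgeR and 7 had an unadjusted p under 0.05, all lower, with a median log2 fold change of -0.47. Limma-voom called 0 of them and DESeq2 5, all lower, Ccr7, Cd209a, Irf4, Itgae and Xcr1. In 9 of the 12 the fold change was below 0, against 50.2% of all genes tested. The others, Batf3 (log2 fold change 0.84 ± 0.45), Clec10a (0.28 ± 0.20) and Cd24a (0.071 ± 0.095), lay above 0 and were not called. The summed level of the 12 markers was 402 to 469 CPM in injured and 461 to 466 CPM in naive lungs. Cd24a, which other lung cells share, was left out after its values were seen. Without it the sum was 155, 168 and 147 CPM in injured lungs, against 195, 201 and 200.2 CPM in naive lungs. Most of this was Itgax, Zbtb46 and Clec9a, none of them called. The groups of Zbtb46 and Clec9a overlapped. Those of Itgax did not, at 43.2 ± 7.77 CPM in injured and 56.3 ± 2.25 CPM in naive lungs. Of 9 measured B cell markers 0 passed the test in edgeR, DESeq2 or limma-voom and 5 had an unadjusted p under 0.05 in edgeR, all lower. Their summed level was 104 ± 1.49 CPM in injured and 133 ± 23.9 CPM in naive lungs (SD, n = 3 each), with naive replicate 3 close to the injured lungs. Markers of T cells, which in the mouse make no class II, summed to 67.96 ± 5.84 CPM in injured and 115 ± 6.31 CPM in naive lungs (SD, n = 3 each). Of these 10 markers 4 fell in edgeR, against 7 in DESeq2 and 4 in limma-voom. All 10 were lower at an unadjusted p under 0.05 in edgeR, with a median log2 fold change of -0.77. Interstitial macrophage markers went the other way, with 5 of 9 higher, led by Pf4 (log2 fold change 1.69 ± 0.25, adjusted p = 0.0105). Their summed levels were 1132 to 1244 CPM in injured lungs and 955 to 989.7 CPM in naive lungs. Most of this was Apoe, at 718 ± 45.4 CPM in injured and 601 ± 14.7 CPM in naive lungs, which was not called (edgeR adjusted p = 0.186). The groups of Mrc1, Cx3cr1 and Csf1r overlapped. Alveolar type 2 cell markers summed to 29001 to 31936 CPM in injured lungs and 29019 to 31965 CPM in naive lungs. The largest part was Sftpc, at 14305 ± 643 CPM in injured and 15756 ± 1021 CPM in naive lungs. Of the 10 markers 0 were called in edgeR and limma-voom and 1 (Sftpa1, higher) in DESeq2. At an unadjusted p under 0.05 in edgeR 2 were higher and 1 lower. All injured lungs lay above all naive lungs in Sftpa1, Sftpb and Abca3 and below them in Lyz1. Over all genes tested the shares were 12.3% above and 10.6% below. Of 9 measured alveolar macrophage markers 1 rose, Chil3, and DESeq2 called 3 higher, adding Atp6v0d2 and Marco. The median log2 fold change of this list was 0.021. Its summed level was 1648 ± 32.7 CPM in injured and 1123 ± 160.2 CPM in naive lungs (SD, n = 3 each). Most of this was Chil3, at 1227 ± 70.2 CPM in injured and 733 ± 126 CPM in naive lungs. Neutrophil markers, of cells that carry little class II, rose in 8 of 10, and in 9 of 10 by DESeq2, and summed to 572 to 1243 CPM in injured and 51.6 to 86.3 CPM in naive lungs. Of 8 endothelial markers 0 passed the test in edgeR, DESeq2 or limma-voom and 1 had an unadjusted p under 0.05 in edgeR. The part of these marker levels in the lower class II levels was not tested.

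**Figure D4:**
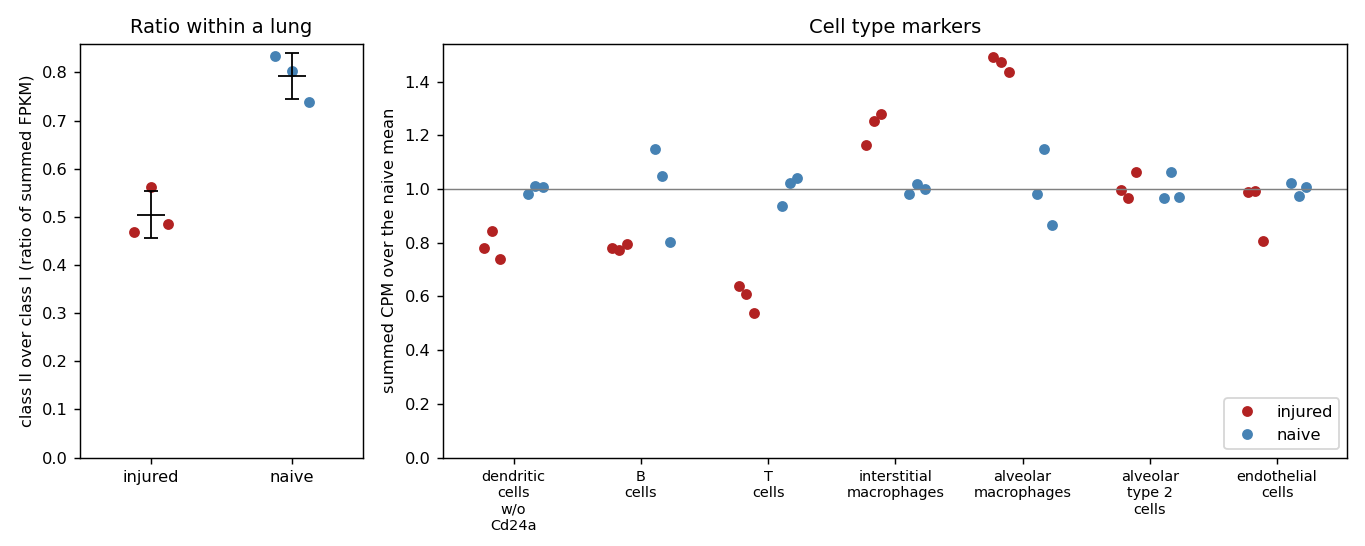
Left, the summed FPKM of H2-Aa, H2-Ab1 and H2-Eb1 over that of H2-K1 and H2-D1 in each lung, with the mean and SD of 3 lungs per group. Right, the summed CPM of marker lists in each lung over the mean of the naive lungs. The sums for B cells, T cells and dendritic cells without Cd24a lie lower in injured lungs. Those for interstitial and alveolar macrophages lie higher, and those for type 2 cells overlap. Chil3 makes up most of the alveolar macrophage sums, and the median log2 fold change of that list is 0.021. Cd24a was left out after its values were seen. With Cd24a the dendritic cell sums overlap, at 402 to 469 CPM in injured and 461 to 466 CPM in naive lungs.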

How the data were processed

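RNA was sequenced from 6 samples of whole left lung as paired-end reads of 150 bases, per the labels' protocols. The authors deposited 1 table with read counts per gene, FPKM, a normalized signal, their log2 fold changes, and p-values. Per the submitters' processing notes STAR, HTSeq, DESeq2, edgeR and the build mm10 were used. Versions and the strand setting: not given in the sources used here. The deposited signal equalled counts over 1 factor per library, and the deposited FPKM followed from counts, lengths and totals (relative tolerance 1e-06). Coordinates are the table's (mm10). Total counts were 20062818, 22432227 and 23638078 in injured lungs and 29572273, 18913487 and 34986276 in naive lungs.

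Counts were filtered with filterByExpr (15486 genes kept), scaled by TMM and fitted with edgeR 4.0.16 (robust quasi-likelihood F test, group only, R 4.3.3), two-sided, with Benjamini-Hochberg adjustment over all genes tested. SE is the log2 fold change over the root of F. The procedure was tested on simulated data. Alternatives were DESeq2 size factors, library size alone, no filter, DESeq2 1.42.0, limma-voom (limma 3.58.1), the replicate number as a block, and each lung left out. Members, lists and motifs were chosen with earlier results of these data known. Named were the classical chains, Cd74, Ciita, Nlrc5, B2m, called members and up to 3 abundant members per role, and of each list the called genes (3 at most, 1 in the opposite direction) or 2 abundant ones. Genes named beyond that were chosen after their values were seen. Among them were H2-Q1, Ctsd, Ctss, Apoe, the hepatocyte markers and the dendritic cell markers named. Nothing in the labels says whether lungs were handled in batches.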

Additional observations from a re-analysis of the deposited data

How the results depend on the processing

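The lower class II level kept its direction in all 12 alternatives, with the median log2 fold change of the class II group from -0.60 to -0.48, and that of the class I group from -0.067 to -0.013. Counts of calls depended on the test and on single lungs. DESeq2 called 1002 genes (417 lower, 585 higher), 9 members lower, 8 class II genes lower and 2 class I genes, of which 1 was lower. With no filter on low counts 729 genes were called, 269 of them lower. Limma-voom called 2 class I genes, 1 of them lower. With 1 lung left out, the genes called ran from 195 to 463 (48 to 146 lower, 145 to 333 higher), members called lower from 1 to 7, class II genes called lower from 1 to 7, class I genes called from 1 to 2 and class I genes called lower from 0 to 1. With the replicate block 621 genes and 5 class II genes were called. The numbers are not said to pair lungs: same-numbered lungs correlated at 0.0767, -0.0853 and 0.154 in their deviations from the group means, and not every lung correlated best with its own number. The cause of these differences was not tested.

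Of 444 single-gene values under the alternatives 407 kept direction and side of the threshold, 11 lost and 10 gained a call, and 16 changed sign, all of genes with no call. These were Calr (0.060, 0.039 and 0.11 without injured replicate 1 or 2 or naive replicate 3; range -0.20 to 0.11), Canx (-0.068 to 0.11), Tap1 (-0.027 to 0.12), Tapbp (-0.018 to 0.070), Cd1d1 (-0.035 to 0.15), Mr1 (-0.27 to 0.021), H2-T22 (-0.051 to 0.091) and H2-M2 (-0.52 to 0.26 with 1 lung left out, -0.062 by limma-voom, -0.039 with the replicate block). Depth limited the genes under about 1 CPM, where a handful of counts sets the value.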

Other observations

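Rows with an H2- symbol that the table does not class as protein coding were left out of the members. There were 6, of which 3 were tested: H2-Q5 had a log2 fold change of -0.42 ± 0.22 (edgeR adjusted p = 0.375), H2-K2 of -0.32 ± 0.28 (adjusted p = 0.628) and H2-T10 of 0.24 ± 0.25 (adjusted p = 0.700). H2-M6-ps, H2-Q3 and H2-Pa had at most 6 counts in either group.

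Within the classical class I pair, H2-D1 stood higher against H2-K1 in injured lungs. The FPKM ratio of H2-D1 to H2-K1 was 1.44, 1.41 and 1.37 in injured lungs, against 1.30, 1.23 and 1.22 in naive lungs, without overlap. The ratio of B2m to H2-K1 was 2.42 ± 0.0896 in injured and 2.65 ± 0.143 in naive lungs (SD, n = 3 each). The 5 genes other than members of the class II group that held both promoter motifs at the spacing given above were BC051142, Bpifb4, Olfr967, Scaper and Scgb2b20.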
